A study of Mus musculus with 12 samples.

Results

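The genes described here are 10 members of the bone morphogenetic protein (BMP) system that are secreted or act at the cell surface, out of 24692 entries in the expression table. They are the ligand genes Bmp2, Bmp4, Bmp6 and Bmp7, the secreted antagonist genes Nog, Grem1, Chrd, Chrdl1 and Sostdc1, and Bambi, which encodes a decoy receptor. Members were taken by gene symbol, and each of the 10 symbols matched 1 entry. RNA was sequenced from 4 cell populations of back skin, with 3 libraries each: dermal papilla, the signalling cluster at the follicle base, dermal sheath, the connective tissue cup around the follicle, hair follicle dermal stem cells, the mesenchymal population that renews the sheath, and interfollicular dermis, the connective tissue between follicles. All 12 libraries came from male Sox2:GFP/aSMA:dsRed mice at postnatal day 26 to 27, in early anagen, the start of a hair growth phase. Every mouse therefore carried a green reporter for Sox2 and a red reporter for smooth muscle actin and no group was treated. The skin was dissociated with enzymes, the cells were antibody-stained and the populations were sorted by FACS, and the markers that set each gate are not given in the sources used here. RNA was sequenced on the SOLiD platform. The populations are called papilla, sheath, stem cells and interfollicular dermis from here on.

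BMP ligands are secreted dimers that bind paired serine/threonine kinase receptors, which then activate SMAD transcription factors. Antagonists such as noggin and chordin bind the ligands outside the cell and keep them from the receptors. In the hair follicle, BMP signalling is known for holding follicle stem cells in rest, and mesenchymal antagonists for opening the way to a new growth phase.

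Values are FPKM, that is, fragments scaled to transcript length and to the library's mapped fragments, so levels of different genes can be set side by side per length. Summed FPKM lay between 181683 and 262695 per library, and a relative depth read from the lowest non-zero values was lowest at 0.633 (papilla replicate 4) and highest at 1.93 (interfollicular dermis replicate 6), relative to stem cells replicate 2. The labels were checked against 11 marker lists. Summed over 8 fibroblast genes, the libraries held 13208 to 23831 FPKM in papilla, 966 to 1919 in sheath, 9364 to 11842 in stem cells and 822 to 1551 in interfollicular dermis. The 8 papilla genes summed to 241 to 1346 FPKM in papilla and 27.4 to 58.3 in sheath. In stem cells they summed to 196 to 414 and in interfollicular dermis to 71.2 to 105. The 7 sheath genes summed to 80.9 to 193 FPKM in papilla and 107 to 342 in sheath. In stem cells they summed to 1801 to 1901 and in interfollicular dermis to 15.7 to 35.8. By the limma test used below, all 7 were lower in sheath than in stem cells, as were 19.6% of all tested genes. Acta2, the gene behind the red reporter, was at 20.5 to 86.4 FPKM in papilla, 35.8 to 76 in sheath, 850 to 901 in stem cells and 5.72 to 10.4 in interfollicular dermis. The 8 hair matrix and shaft genes summed to 66.5 to 819, 772 to 1011, 133 to 328 and 769 to 976 FPKM in the same order. Shh, a ligand of the growing hair epithelium, was at 0.708 to 1.4 FPKM in papilla, 1.48 to 3.13 in sheath, 0.313 to 0.614 in stem cells and 41.5 to 83.7 in interfollicular dermis. The 8 basal and suprabasal keratinocyte genes summed highest in papilla, with a median of 3114 FPKM there, 898 in sheath, 592 in stem cells and 1100 in interfollicular dermis. Most of the papilla sum was Krt1 and Krt10, and the list did not move as a whole. By the limma test used below, 2 of the 8 were higher and 2 lower in papilla than in sheath. Against interfollicular dermis the counts were 2 and 3. Krt5 was at 81 to 198 FPKM in papilla, 366 to 411 in sheath and 305 to 430 in interfollicular dermis. The libraries labelled sheath and interfollicular dermis thus had few fibroblast transcripts and high sums of the hair matrix and shaft list. In sheath most of that sum was Krt25 (287 to 363 FPKM) and Krt71 (269 to 526). Krt35 was at 8.17 to 8.70 FPKM in sheath and 254 to 365 in interfollicular dermis. The population names are used below only as labels. In bulk samples of this kind, fewer cells of a type and less RNA per cell cannot be told apart.

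Of the 10 genes, 8 differed among the 4 populations by a moderated F test in limma at an adjusted p of 0.05, and Bmp6 (adjusted p = 0.252) and Grem1 (adjusted p = 0.0524) did not pass. Over all 12774 tested genes, 56.8% passed the same test, so a high count among any 10 genes is the background of these libraries. All 10 members passed the filter of at least 1 FPKM in at least 3 libraries. Chrd passed it in 4 libraries and Chrdl1 in 6, all of papilla and stem cells, so the filter itself favoured a difference for these. Their p-values and their part in the counts below carry that limit. Their calls in the contrasts below were also made in a fit without the filter.

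Start-site sequence was at hand for 4 of the 10 genes in RefSeq on GRCm38.p6. The 250 bases before the start are shown for Bmp4, Bmp6 and Grem1, because these 3 genes were highest of all 12 libraries in the same library, papilla replicate 4. The windows are chr14:46390670-46390919 on the minus strand for Bmp4, chr13:38345466-38345715 on the plus strand for Bmp6 and chr2:113758649-113758898 on the minus strand for Grem1. Each is printed 5′ to 3′, and capitals mark matches on either strand to CACCTG, an E-box word, or GGCGCC, a GC-rich word bound by SMADs.
Bmp4: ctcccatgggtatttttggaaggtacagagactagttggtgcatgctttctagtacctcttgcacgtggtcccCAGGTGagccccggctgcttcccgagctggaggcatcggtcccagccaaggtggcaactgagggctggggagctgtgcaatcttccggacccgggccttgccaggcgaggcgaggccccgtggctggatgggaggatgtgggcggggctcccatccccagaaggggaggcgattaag
Bmp6: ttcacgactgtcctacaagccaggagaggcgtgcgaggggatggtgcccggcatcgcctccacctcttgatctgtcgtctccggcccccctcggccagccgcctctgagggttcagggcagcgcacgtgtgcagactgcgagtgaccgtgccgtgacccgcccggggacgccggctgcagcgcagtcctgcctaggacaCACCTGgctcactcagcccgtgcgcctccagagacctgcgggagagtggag
Grem1: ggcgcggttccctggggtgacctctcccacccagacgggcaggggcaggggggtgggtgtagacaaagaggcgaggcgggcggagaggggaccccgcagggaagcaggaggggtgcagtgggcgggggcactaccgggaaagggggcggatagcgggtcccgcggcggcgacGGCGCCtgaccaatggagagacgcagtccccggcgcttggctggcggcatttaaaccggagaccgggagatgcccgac

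The windows of Bmp4 and Bmp6 each held 1 match to CACCTG, from 177 to 172 bases before the start of Bmp4 and from 51 to 46 bases before the start of Bmp6. That word occurs in 17.2% of the 32851 windows of the same length in the table. Grem1 held 1 match to GGCGCC, from 78 to 73 bases before its start, a word found in 9.59% of windows. None of the 3 windows held CTTTGAT or CTTTGAA, LEF/TCF words found in 7.48% of windows, or TATAAA, found in 12.4%. The windows were 63.2% G and C for Bmp4, 68.8% for Bmp6 and 72% for Grem1, where the median window had 52.4%. These matches describe the letters only.

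Among the ligands, Bmp4 and Bmp7 had the highest levels, and their patterns across the populations differed. Bmp4 (chromosome 14, 46383525 to 46390669), a ligand that papilla is known to secrete, was at 12.8, 21.1 and 51.6 FPKM in papilla, 4.52, 6.44 and 2.67 in sheath, 7.61, 5.64 and 18.4 in stem cells and 17.3, 32.3 and 20.7 in interfollicular dermis. The papilla and interfollicular dermis libraries all lay above the sheath libraries, and stem cells overlapped with each of the others. Of all tested genes, 18.2% had papilla wholly above sheath and 8.96% had interfollicular dermis wholly above sheath. Bmp4 was higher in papilla than in sheath (log2 fold change 2.24, SE 0.50, adjusted p = 0.00267). Sheath also lay below interfollicular dermis (-2.15, SE 0.50, adjusted p = 0.0434). The call against interfollicular dermis ended in 8 of 12 fits that left out 1 library, with adjusted p up to 0.193 without sheath replicate 5, and also without the filter on low values (adjusted p = 0.116) and with median-of-ratios scaling (adjusted p = 0.0526).

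The populations ranked by mean Bmp4 were papilla (28.5 ± 20.5 FPKM, SD, n = 3), interfollicular dermis (23.5 ± 7.86), stem cells (10.6 ± 6.90) and sheath (4.54 ± 1.88). No neighbouring populations in that order passed the test, with adjusted p = 0.897 for papilla over interfollicular dermis, 0.0766 for stem cells over interfollicular dermis and 0.136 for sheath over stem cells. The difference between stem cells and interfollicular dermis passed with only these populations in the fit (adjusted p = 0.0431), without stem cells replicate 4 (-1.65, adjusted p = 0.0242) and without papilla replicate 4 (adjusted p = 0.035).

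Bmp7 (chromosome 2, 172868012 to 172940321), a ligand of the subgroup that also holds Bmp6, was low in stem cells alone. It was at 9.32, 13.6 and 20.6 FPKM in papilla, 10.3, 10.2 and 12.7 in sheath, 2.96, 3.53 and 2.84 in stem cells and 14.1, 22 and 14.8 in interfollicular dermis. All 9 libraries of the other populations lay above the 3 stem cell libraries. Over all tested genes this held for 6.49% in papilla, 34.4% in sheath and 29.7% in interfollicular dermis, each taken alone. The difference passed for papilla over stem cells (1.85, SE 0.28, adjusted p = 0.00172), sheath over stem cells (1.55, SE 0.28, adjusted p = 0.000745) and stem cells over interfollicular dermis (-2.10, SE 0.28, adjusted p = 0.000106). Interfollicular dermis, papilla and sheath, in that order of mean level, did not pass the test against one another (adjusted p from 0.375 to 0.485 in the 3 comparisons), although all 3 sheath libraries lay below all 3 interfollicular dermis libraries.

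Bmp2 (chromosome 2, 133552159 to 133562896), a close relative of Bmp4, was lowest on average in sheath. It was at 9.39, 17.5 and 11.2 FPKM in papilla, 3, 3.02 and 3.06 in sheath, 10.4, 9.25 and 1.34 in stem cells and 7.1, 9.57 and 11.1 in interfollicular dermis. Only stem cells overlapped with sheath, through replicate 4. Papilla and interfollicular dermis lay above sheath, with the shares of all genes given for Bmp4. Bmp2 was higher in papilla than in sheath (1.72, SE 0.49, adjusted p = 0.0109), and the other 5 contrasts did not pass, with adjusted p from 0.201 to 0.54.

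The stem cell libraries disagreed on Bmp2, and other markers moved with it. Replicate 4, with 1.34 FPKM, had 24.8 FPKM summed over 5 immune genes, against 818 and 331 in replicates 1 and 2, and 16.6 FPKM over 7 melanocyte genes, against 68.1 and 89. The part of these cells in the Bmp2 level was not tested. Without replicate 4, Bmp2 was lower in sheath than in stem cells (-1.43, adjusted p = 0.00292).

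Bmp6 (chromosome 13, 38345716 to 38500314), the ligand most spread within a population, was at 1.84, 6.28 and 22.8 FPKM in papilla, 2.23, 4.03 and 3.12 in sheath, 2.70, 2.08 and 5.75 in stem cells and 1.30, 1.62 and 3.76 in interfollicular dermis. The papilla values spanned 12.4-fold and overlapped with all other populations. No contrast passed, with adjusted p from 0.0889 for papilla over interfollicular dermis to 0.94. Without papilla replicate 1, Bmp6 was higher in papilla than in sheath (1.70, adjusted p = 0.0211), and higher than in interfollicular dermis (2.11, adjusted p = 0.00941). Without papilla replicate 4 the difference of Bmp6 was 0.17 over sheath (adjusted p = 0.791) and 0.57 over interfollicular dermis (adjusted p = 0.353).

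**Figure D1:**
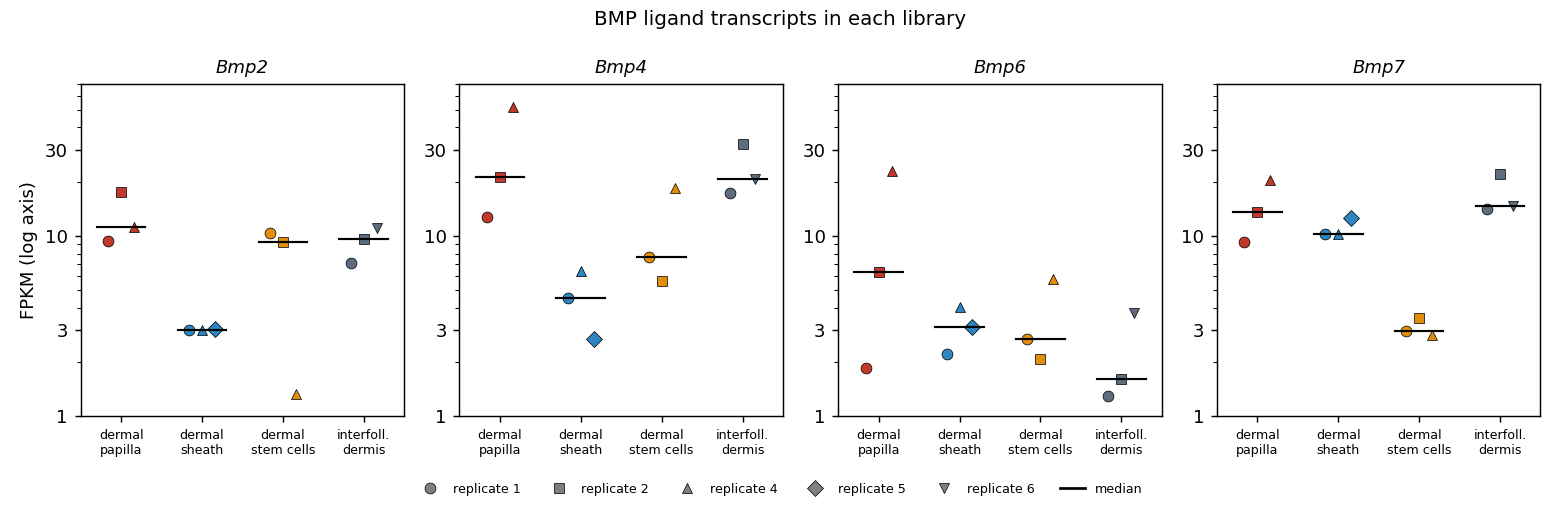
FPKM of the 4 ligand genes on a log axis, with 1 point per library by population, the replicate number as the symbol and the median as a bar. Bmp7 was between 2.84 and 3.53 FPKM in stem cells and at least 9.32 FPKM elsewhere, and Bmp2 was near 3 FPKM in all sheath libraries.

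Of the 5 antagonists, Nog was highest on average in stem cells, Chrd and Chrdl1 were highest in papilla and near 0 in sheath and interfollicular dermis, and Sostdc1 was present in every library and highest on average in papilla. Grem1 libraries overlapped between populations except stem cells, all higher, and interfollicular dermis, and the F test did not pass.

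Nog (chromosome 11, 89300638 to 89302559) encodes noggin, which covers the receptor-binding faces of BMP ligands. It was at 5.40, 6.72 and 11.9 FPKM in papilla, 1.22, 0.305 and 3.21 in sheath, 13.1, 9.35 and 25.2 in stem cells and 0.166, 2.01 and 0.787 in interfollicular dermis. Every papilla and stem cell library lay above every sheath and interfollicular dermis library. Of all tested genes, 18.2% had papilla wholly above sheath and 16.2% wholly above interfollicular dermis. Stem cells lay wholly above sheath for 24.3% and wholly above interfollicular dermis for 23.1%. The 4 contrasts between those populations passed: papilla over sheath (1.90, SE 0.49, adjusted p = 0.00696), sheath over stem cells (-2.76, SE 0.49, adjusted p = 0.000783), stem cells over interfollicular dermis (3.08, SE 0.49, adjusted p = 0.000473) and papilla over interfollicular dermis (2.22, SE 0.49, adjusted p = 0.00361). Papilla over stem cells did not pass (-0.86, SE 0.49, adjusted p = 0.299), nor did sheath over interfollicular dermis (0.32, SE 0.49, adjusted p = 0.822).

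Chrd (chromosome 16, 20731425 to 20742384), the gene of chordin, had low levels throughout. It was at 2.93, 3.8 and 3.5 FPKM in papilla, 0.112, 0.22 and 0.0325 in sheath, 0.822, 0.650 and 1.09 in stem cells and 0.0195, 0.0574 and 0.286 in interfollicular dermis. The libraries fell into 3 levels without overlap, with papilla above stem cells and both above the other 6 libraries. Papilla lay wholly above stem cells for 6.49% of all tested genes, and the shares for the other pairs are those given for Nog. The gene passed the filter through papilla, where it was high, and stem cells replicate 4. Chrd was higher in papilla than in stem cells (1.25, SE 0.24, adjusted p = 0.00792), in sheath (1.97, SE 0.24, adjusted p = 4.7e-05) and in interfollicular dermis (1.98, SE 0.24, adjusted p = 7.05e-05). A fold change here is of FPKM plus 1, which understates the change of a gene this low, and with 0.1 in place of 1 the call against stem cells ended (1.90, adjusted p = 0.1). The calls of sheath over stem cells (-0.72, adjusted p = 0.0281) and stem cells over interfollicular dermis (0.73, adjusted p = 0.0316) ended in 4 and 5 of 12 fits without 1 library, with adjusted p up to 0.101 and 0.111, both without stem cells replicate 4. Both calls of Chrd also ended with quantile normalization, at -0.34 (adjusted p = 0.333) and 0.53 (adjusted p = 0.143).

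Chrdl1 (chromosome X, 143285674 to 143394263) encodes chordin-like 1, a secreted BMP antagonist with cysteine-rich repeats like those of chordin. It was at 21.3, 20.4 and 11.8 FPKM in papilla, 0.350, 0.273 and 0.0131 in sheath, 3.9, 4.38 and 1.83 in stem cells and 0.107, 0.213 and 0.493 in interfollicular dermis. The 3 levels of Chrd were seen again, with no overlap between papilla, stem cells and the other 6 libraries. Chrdl1 had the largest fold changes of the 10 genes, for papilla over sheath (3.92, SE 0.32, adjusted p = 3.59e-06) and papilla over interfollicular dermis (3.86, SE 0.32, adjusted p = 5.96e-06). It was also higher in papilla than in stem cells (2.12, SE 0.32, adjusted p = 0.00207), lower in sheath than in stem cells (-1.81, adjusted p = 0.000765) and higher in stem cells than in interfollicular dermis (1.74, adjusted p = 0.0013). Sheath over interfollicular dermis did not pass for Chrdl1 (-0.07, adjusted p = 0.957) or Chrd (0.00, SE 0.24, adjusted p = 1).

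Grem1 (chromosome 2, 113748675 to 113758648) encodes gremlin 1, an antagonist of the DAN family. It was at 2.88, 0.678 and 9.09 FPKM in papilla, 0.466, 2.15 and 0 in sheath, 7.79, 7.97 and 1.94 in stem cells and 0.117, 0.545 and 1.69 in interfollicular dermis. Papilla overlapped with all other populations, and sheath replicate 4 lay above stem cells replicate 4. Every stem cell library lay above every interfollicular dermis library, as was so for 23.1% of all genes. The contrasts of sheath over stem cells (-1.88, SE 0.66, adjusted p = 0.034) and stem cells over interfollicular dermis (1.88, SE 0.66, adjusted p = 0.0394) passed, though the F test did not. Each of the calls ended in 4 of 12 fits without 1 library, with adjusted p up to 0.126 without sheath replicate 5 and up to 0.132 without interfollicular dermis replicate 1. Both calls of Grem1 also ended without the filter on low values (adjusted p = 0.0931 and 0.103), and that of stem cells over interfollicular dermis with a pseudocount of 0.1 (adjusted p = 0.0722).

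Sostdc1 (chromosome 12, 36314169 to 36318452), also known as Wise or ectodin, encodes a secreted protein that binds BMPs and also modulates Wnt signalling. It had the highest level of the 10 genes in 11 of 12 libraries, the exception being sheath replicate 1, where Bmp7 and Bambi were higher. It was at 52.5, 124 and 328 FPKM in papilla, 8.11, 27.4 and 15.5 in sheath, 29.9, 23.8 and 52.4 in stem cells and 32.5, 35.2 and 23.1 in interfollicular dermis. The lowest papilla library lay just above the highest stem cell library, and the other 3 populations overlapped with one another. Against stem cells, 6.49% of all tested genes had every papilla library higher in the same way. Sostdc1 was higher in papilla than in sheath (3.0, SE 0.57, adjusted p = 0.000947) and interfollicular dermis (2.08, SE 0.57, adjusted p = 0.0111). Against stem cells the difference was 1.92 (SE 0.57, adjusted p = 0.0559), and it passed with median-of-ratios scaling (2.15, adjusted p = 0.041), with quantile normalization (adjusted p = 0.0484) and without papilla replicate 1 (2.56, adjusted p = 0.0149). In order of mean level, stem cells, interfollicular dermis and sheath did not pass the test against each other (adjusted p from 0.139 to 0.848).

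Bambi (chromosome 18, 3507011 to 3516404) encodes a transmembrane protein that resembles a type I receptor without its kinase and is itself known as a BMP target. It was at 3.23, 10.2 and 11.5 FPKM in papilla, 8.39, 14.4 and 8.66 in sheath, 3.59, 3.47 and 3.04 in stem cells and 14.3, 19.9 and 12.1 in interfollicular dermis. Like Bmp7 it was low in all 3 stem cell libraries, but papilla replicate 1 was as low. It was higher in sheath than in stem cells (1.36, SE 0.37, adjusted p = 0.0112) and lower in stem cells than in interfollicular dermis (-1.89, SE 0.37, adjusted p = 0.00197). The call of sheath over stem cells ended without sheath replicate 4 (adjusted p = 0.0508). All 3 papilla libraries lay below the interfollicular dermis libraries, as for 32.3% of all genes, but the contrast did not pass (-0.94, SE 0.37, adjusted p = 0.0588). Among other fits, it passed without papilla replicate 4 (-1.23, adjusted p = 0.0246) or 2 (-1.15, adjusted p = 0.044). Papilla over stem cells passed without papilla replicate 1 (1.44, adjusted p = 0.0147).

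**Figure D2:**
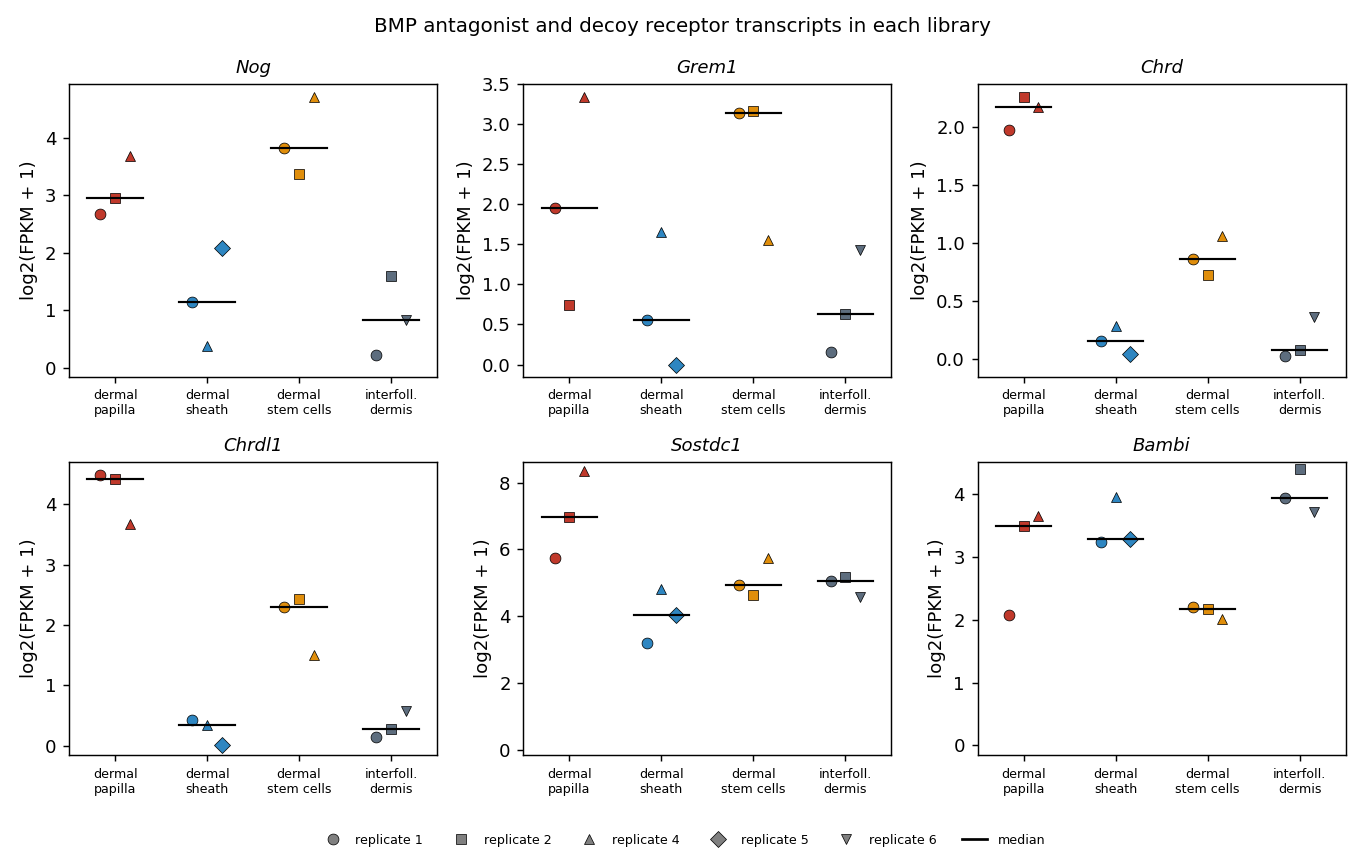
Levels of the 5 antagonist genes and Bambi as log2(FPKM + 1), with 1 point per library by population, the replicate number as the symbol and the median as a bar. Chrd and Chrdl1 were at most 0.286 and 0.493 FPKM in sheath and interfollicular dermis, and Nog was at most 3.21 FPKM there and at least 5.40 FPKM in papilla and stem cells.

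Between papilla and stem cells, 3 of the 10 genes were higher in papilla (Bmp7, Chrd and Chrdl1) and 0 lower, by limma with all 12 libraries. At the same adjusted p, 2.31% of all tested genes were higher and 6.38% lower, and with median-of-ratios scaling of the libraries 3.53% and 4.02%. At an unadjusted p of 0.05 the member counts were 6 and 0, a looser threshold to which these shares do not apply. The median log2 fold change of the 10 genes was 1.14, against -0.25 over all tested genes. Same-numbered libraries of the 2 populations deviated together, and when a fit of these 6 libraries was blocked by replicate number, 5 genes were higher and 0 lower, where 3.23% of all genes were higher and 7.02% lower. The genes added by that fit were Bmp4 (1.28, SE 0.26, adjusted p = 0.0261) and Sostdc1 (1.92, SE 0.35, adjusted p = 0.02). Both were higher in papilla in 3 of 3 pairs, by 0.68, 1.74 and 1.44 for Bmp4 and by 0.79, 2.33 and 2.62 for Sostdc1 on the log2 scale. Nog was lower in papilla in all 3 pairs, by -1.14, -0.42 and -1.03, and did not pass (adjusted p = 0.0651 with the block). Without papilla replicate 1 and without the block, 5 genes passed, with Sostdc1 and Bambi added, where 769 of all genes were called. Markers of other cell types also differed between these populations. The melanocyte list summed to 197 to 819 FPKM in papilla and 16.6 to 89 in stem cells, with 4 of 7 genes higher in papilla, and the keratinocyte list to 1052 to 3138 in papilla and 588 to 1129 in stem cells, with 1 of 8 higher. Their part in the member differences was not tested.

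**Figure D3:**
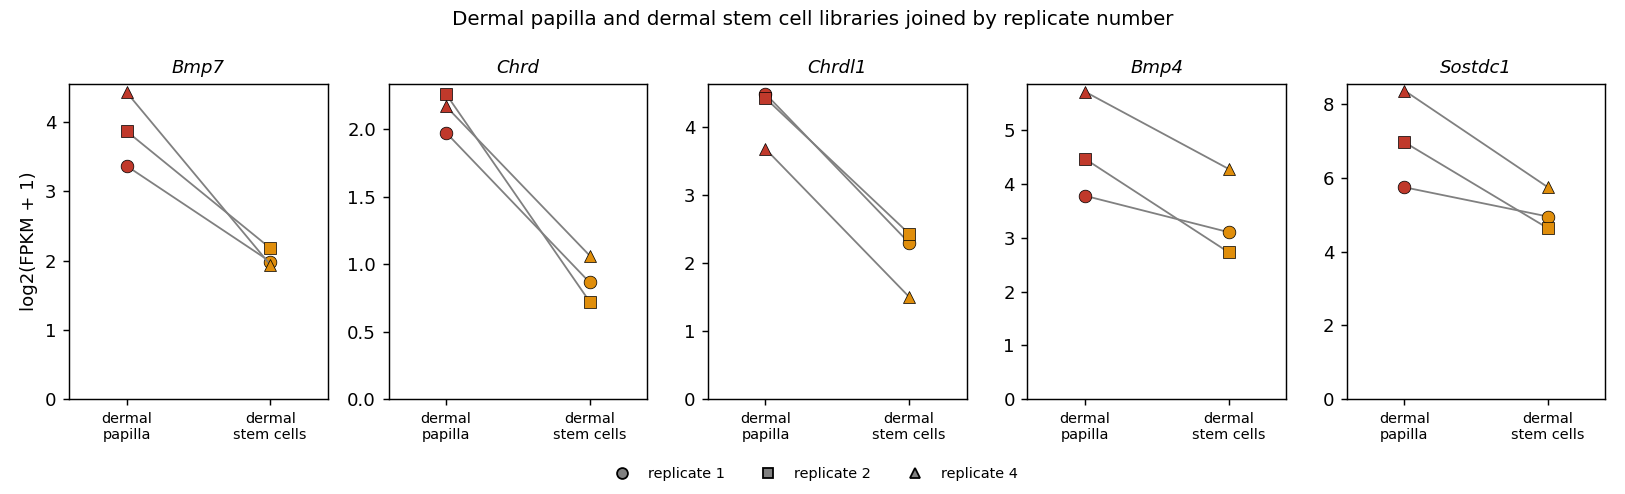
log2(FPKM + 1) of the 5 genes that passed with the replicate block, in papilla and stem cells, with lines joining libraries of the same replicate number. All lines fall towards stem cells, by 0.68 to 1.74 for Bmp4 and by 0.79 to 2.62 for Sostdc1.

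Papilla over sheath had the most calls in 1 direction. In all, 6 genes were higher in papilla (Bmp2, Bmp4, Nog, Chrd, Chrdl1 and Sostdc1) and 0 lower, both adjusted and at an unadjusted p of 0.05. Among all genes 16.4% were higher and 33.4% lower at the adjusted p, and with median-of-ratios scaling 22.3% and 20.7%. The median fold change of the members was 1.81, against -0.36 over all genes. Against interfollicular dermis 4 genes were higher in papilla (Nog, Chrd, Chrdl1 and Sostdc1, all antagonists) and 0 lower. At the same adjusted p, 13.7% of all genes were higher and 28.6% lower (19.3% and 17.3% with median-of-ratios scaling). No ligand passed in that contrast at the adjusted p. At an unadjusted p of 0.05 the member counts were 5 and 1, and those shares do not apply to them. The 4 antagonists had all papilla libraries above all interfollicular dermis libraries, as did 16.2% of all genes.

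Stem cells were compared with sheath and with interfollicular dermis, and 6 genes passed in each comparison. Bmp7 and Bambi were higher in sheath than in stem cells and Nog, Grem1, Chrd and Chrdl1 lower, where 24.3% of all genes were higher and 19.6% lower (17.9% and 22% with median-of-ratios scaling). Bmp7 and Bambi had every sheath library above every stem cell library, as did 34.4% of all genes. Nog, Grem1, Chrd and Chrdl1 were higher in stem cells than in interfollicular dermis, and Bmp7 and Bambi were lower, where 17.9% of all genes were higher and 19.7% lower. These comparisons share the stem cell libraries. Between sheath and interfollicular dermis only Bmp4 passed, lower in sheath, and 0 genes were higher, where 0.939% of all genes were higher and 1.32% lower. At an unadjusted p of 0.05, for which no share of all genes is given, the counts there were 0 higher and 2 lower. All 3 sheath libraries lay below all interfollicular dermis libraries for Bmp4, Bmp2 and Bmp7, as did 8.96% of all genes. The fibroblast marker sum was at least 9364 FPKM in every papilla and stem cell library and at most 1919 FPKM in every sheath and interfollicular dermis library, and its part in the calls between them was not tested.

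**Figure D4:**
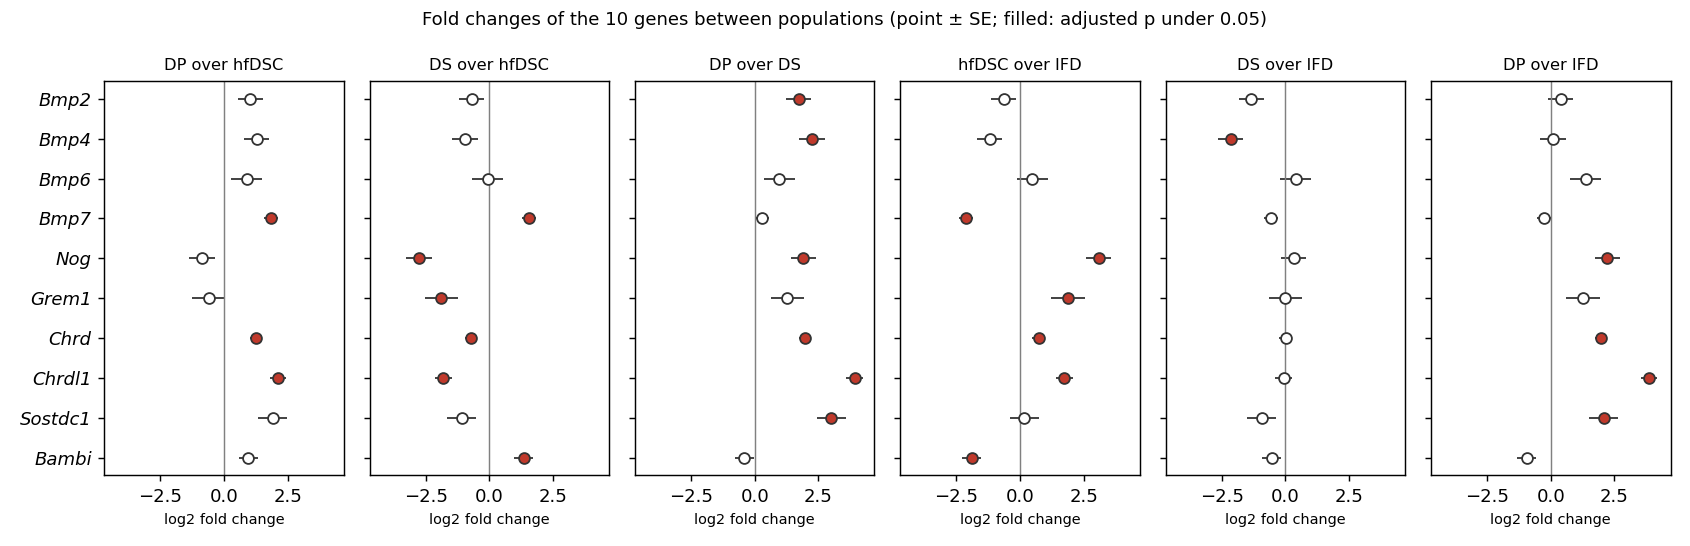
log2 fold change of each gene in the 6 comparisons (DP, papilla; DS, sheath; hfDSC, stem cells; IFD, interfollicular dermis), with the first-named population over the other, bars of 1 SE and filled points for adjusted p under 0.05. The antagonists Nog, Chrd, Chrdl1 and Sostdc1 lie right of 0 in papilla over sheath and over interfollicular dermis, and Bmp7 passed in each comparison with stem cells.

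Summed FPKM set the ligands beside the antagonists within each library. The 4 ligands summed to 33.3, 58.5 and 106 FPKM in papilla, 20.1, 23.7 and 21.5 in sheath, 23.7, 20.5 and 28.4 in stem cells and 39.8, 65.5 and 50.4 in interfollicular dermis. The 5 antagonists summed to 85.1, 155 and 365 FPKM in papilla, 10.3, 30.4 and 18.7 in sheath, 55.5, 46.1 and 82.5 in stem cells and 32.9, 38 and 26.3 in interfollicular dermis. The antagonist sum was 2.55 to 3.43 times the ligand sum in papilla, 0.511 to 1.28 in sheath, 2.25 to 2.91 in stem cells and 0.522 to 0.827 in interfollicular dermis.

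Sostdc1 held 51.5% to 98.8% of the antagonist sum. Without it, the 4 remaining antagonists had 0.341 to 0.977 times the ligand sum in papilla, 0.107 to 0.152 in sheath, 1.06 to 1.09 in stem cells and 0.0103 to 0.0645 in interfollicular dermis. In that ratio the 4 populations did not overlap, and stem cells were the only ones with as much antagonist as ligand transcript in every library. A ratio of transcript levels is not a ratio of active proteins, and these ratios are given without a test because the members were chosen with earlier results known.

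The leading ligand also changed between libraries. It was Bmp4 in all 3 libraries of papilla and of interfollicular dermis, Bmp7 in all 3 of sheath, Bmp2 in stem cells replicates 1 and 2 and Bmp4 in replicate 4. The leading antagonist was Sostdc1 in all 12.

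**Figure D5:**
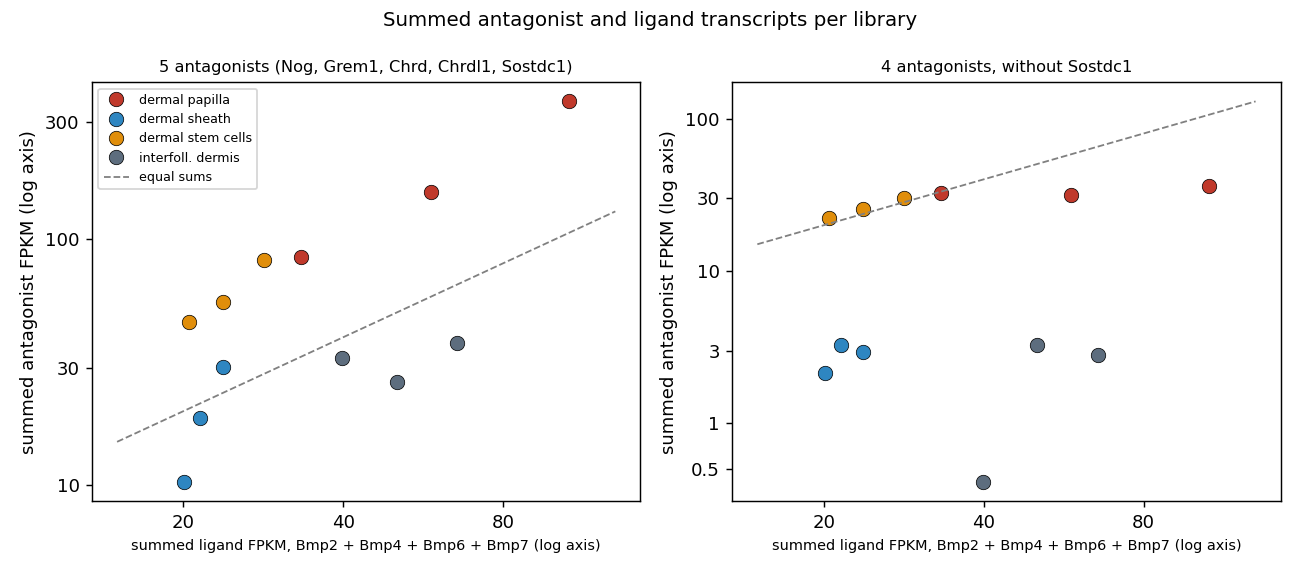
Summed antagonist FPKM against summed ligand FPKM for each library on log axes, with all 5 antagonists (left) and without Sostdc1 (right), and a dashed line at equal sums. On the right the stem cell libraries lie on the line, at 1.06 to 1.09 times the ligand sum, and interfollicular dermis lies farthest below it.

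The papilla libraries varied in step for several members. Replicate 4 had the highest Bmp4, Bmp6, Grem1 and Sostdc1 of all 12 libraries and replicate 1 the lowest Bmp2, Bmp4, Bmp7, Bmp6, Nog, Chrd, Sostdc1 and Bambi of the 3. Chrdl1 differed, with 11.8 FPKM in replicate 4 against 21.3 and 20.4 in replicates 1 and 2. The 8 papilla markers summed to 241, 461 and 1346 FPKM in replicates 1, 2 and 4. The keratinocyte list summed to 3138, 3114 and 1052 FPKM, the melanocyte list to 819, 572 and 197 and the hair matrix list to 204, 819 and 66.5. The papilla sum was thus highest and the keratinocyte and melanocyte sums lowest in the library with the highest Bmp4, Bmp6, Grem1 and Sostdc1. The hair matrix sum was highest in replicate 2. Sox18, on the papilla list, went the other way, at 0.961, 5.15 and 0.406 FPKM in replicates 1, 2 and 4. Mitf, on the melanocyte list, was lowest in replicate 2, at 6.42, 3.96 and 4.39 FPKM. The part of these markers in the member levels was not tested. Papilla replicate 4 also had the lowest relative depth.

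The wider pathway was described with 55 further genes, 42 of which were tested. Of 10 other ligand genes 3 were tested. Bmp3 (adjusted p = 1.34e-05) and Gdf10 (adjusted p = 0.000175) passed the F test, which 56.8% of all tested genes passed. Bmp3, a ligand that can oppose other BMPs, averaged 7.66 ± 1.92 FPKM in papilla, 0.672 ± 0.0231 in sheath, 6.62 ± 1.55 in stem cells and 0.650 ± 0.360 in interfollicular dermis. Gdf10, a relative of Bmp3, averaged 29 ± 18.9, 1.12 ± 1.02, 5.14 ± 1.88 and 3.49 ± 0.967 FPKM in the same order, and was higher in papilla than in stem cells (2.13, adjusted p = 0.0129). Bmp8a averaged 0.498, 0.242, 0.166 and 1.52 FPKM, and it reached 1 FPKM in the 3 interfollicular dermis libraries alone, so it passed the filter only through the population where it was high and no test is given.

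Of 19 other secreted antagonists and modulators 15 were tested. In papilla over sheath 7 were higher and 1 lower, where 16.4% of all genes were higher and 33.4% lower. In papilla over interfollicular dermis 10 were higher and 0 lower, where the shares of all genes were 13.7% and 28.6%. In sheath over stem cells 1 was higher and 8 lower (24.3% and 19.6% of all genes), and in stem cells over interfollicular dermis 8 were higher and 1 lower (17.9% and 19.7%). Against stem cells 1 was higher in papilla, Fst, the gene of the activin and BMP binder follistatin, at 52.1, 76.5 and 79.4 FPKM in papilla and 17.4, 20.7 and 23.7 in stem cells (1.69, adjusted p = 0.00267).

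Nbl1, a DAN family antagonist like Grem1, averaged 36.9 FPKM in papilla, 6.04 in sheath, 44.8 in stem cells and 7.24 in interfollicular dermis, and in the same order Fstl1, a follistatin-like matrix protein gene, 559, 46.7, 694 and 34.1. Smoc2, a matricellular gene, was the 1 gene of the list that differed between sheath (46.5 ± 6.44 FPKM) and interfollicular dermis (11.2 ± 2.63; 1.98, adjusted p = 0.00102). Twsg1, which encodes a chordin partner, had averages of 30.2, 29.7, 25.1 and 18.1 FPKM in the 4 populations, and was higher in papilla than in interfollicular dermis (0.71, adjusted p = 0.00928).

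Of 10 receptor and co-receptor genes 9 were tested, and 2 were higher and 4 lower in papilla than in sheath, near the 16.4% and 33.4% of all genes. Bmpr1a, the main type I BMP receptor gene, was at 12, 15.3 and 17.7 FPKM in papilla and 37, 39.8 and 39.3 in sheath (-1.33, adjusted p = 0.00115). Bmpr2, the type II receptor gene, averaged 12.4 in papilla and 23.4 in sheath (-0.86, adjusted p = 0.00934). Acvr2b averaged 0.0279, 3.69, 0.682 and 2.60 FPKM in papilla, sheath, stem cells and interfollicular dermis. The endoglin gene Eng averaged 20.8, 4.43, 28.3 and 6.63 FPKM, and Acvrl1, a receptor gene known from endothelium, 6.55, 1.53, 10 and 1.52. Over the 5 endothelial markers the sums overlapped among the populations, at 10.4 to 113, 8.07 to 53.6, 14.8 to 75.5 and 19.1 to 87.7 FPKM.

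Among 8 tested mediators and inhibitors, 0 were higher and 3 lower in papilla than in sheath, where 16.4% of all genes were higher and 33.4% lower. Smad4, the shared partner SMAD, averaged 16.8 FPKM in papilla and 38.6 in sheath (-1.16, adjusted p = 0.000363), and Smad5, a BMP effector, 9.36 and 20.4 (-1.08, adjusted p = 0.00129). Smad1, its relative, averaged 22.6 in sheath and 12.9 in stem cells (0.78, adjusted p = 0.0185). Ski, a repressor of SMADs, averaged 14.5 in papilla and 24 in stem cells (-0.69, adjusted p = 0.0446).

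Of 7 response genes 6 were lower and 0 higher in papilla than in sheath, where 33.4% of all genes were lower and 16.4% higher. In sheath over stem cells 5 were higher and 0 lower, where 24.3% of all genes were higher and 19.6% lower. Msx2, a homeobox gene of hair epithelium induced by BMPs, averaged 8.30, 74, 7.68 and 75.1 FPKM in papilla, sheath, stem cells and interfollicular dermis, and Id1, an inhibitor of helix-loop-helix factors, 21.6, 132, 39.8 and 100.3. Msx1 averaged 2.92, 23, 4.67 and 45.6 FPKM and Id4 11.2, 31.1, 12.1 and 16.1. The hair matrix and shaft sums given above were high in the same 2 populations as Msx1, Msx2 and Id1, and their part in these levels was not tested.

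Genes with the most similar profile were taken as those with the smallest root mean square difference from a member in log2(FPKM + 1) over the 12 libraries, each gene centred on its mean. Nearest to Chrdl1 were Tmeff2 (0.332) and Sod3 (0.344), and nearest to Chrd were Opcml (0.212) and Ebf2 (0.223). Sostdc1 was nearest to Pappa2 (0.393) and Edn3 (0.429), which averaged 31.4 and 30.7 FPKM in papilla. Nog was nearest to Adamts10 (0.414) and Cys1 (0.446), Bmp4 to Nsg1 (0.493) and Prkd1 (0.504), and Bmp2 to Emb (0.383) and Pkib (0.410). Bmp7 was nearest to Scd1 (0.377) and Scn4b (0.392), and Bambi to Luc7l3 (0.345) and Lrrc16a (0.354). Among the 10 members themselves, Bmp7 and Bambi were the most alike, at 0.447.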

How the data were processed

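RNA sequencing values were available for 12 libraries in 4 populations. The authors deposited 1 table of FPKM values with 1 column per library, made per the submitters' processing notes with TopHat2 2.0.13, SAMtools and Cufflinks 2.2.1 on mm10. Annotation, parameters and strand handling are not given in the sources used here, so overlapping genes may share reads. Counts were not used and relative depth was only approximated, so no counting intervals are given.

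The tested genes reached 1 FPKM in 3 or more libraries. Values were analysed on the log2(FPKM + 1) scale by limma 3.58.1 (R 4.3.3), in a model of 4 population means with a mean-variance trend and 8 residual degrees of freedom. P-values are two-sided and Benjamini-Hochberg adjusted within each of 6 contrasts over all 12774 tested genes. The code was tested on simulated data. The labels do not state whether replicates are different animals; p-values reflect variation among these libraries only, and that may be technical.

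Replicate numbers come from the sample titles, with DSL1 read as dermal sheath replicate 1. Deviations from the group means of same-numbered dermal papilla and dermal stem cell libraries correlated at 0.306, 0.241 and 0.389 across genes, above 0.1 in every pair, so a blocked fit is given for that comparison. Differently numbered libraries of these populations correlated at -0.333 to 0.125. The highest correlation of all, 0.445, was between dermal sheath replicate 1 and interfollicular dermis replicate 6. High values were thus not limited to shared numbers. Members and gene lists were chosen with earlier results of these data known. Named pathway genes were up to 4 per role with the smallest F test p-value, plus 6 chosen by name, of which 1 is not reported here. Alternatives were the pseudocount, the filter, 2 scalings, the block, the populations fitted and each library left out.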

Additional observations from a re-analysis of the deposited data

How the results depend on the processing

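Of 60 combinations of a gene and a comparison 26 passed, and 19 of those passed under every alternative run. The shares of all genes given above are from the fit without alternatives unless another is named. None of the called values changed sign. The count of members passing the F test was 8, and 7 to 9 without 1 library. For papilla over stem cells the count was 3 and became 5 with the replicate block, in all 12 libraries or in these 6, and 3 to 5 without 1 library, with 5 without papilla replicate 1. For sheath over interfollicular dermis the count was 1 and became 0 without the filter on low values or with median-of-ratios scaling, 2 with only the populations compared in the fit, and 0 to 2 without 1 library. At an unadjusted p of 0.05, for which no share of all genes is given, limma called 2 there. Without 1 library the counts were 4 to 6 for sheath over stem cells, 6 to 7 for papilla over sheath, 4 to 7 for stem cells over interfollicular dermis and 4 to 6 for papilla over interfollicular dermis.

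Other populations shared at most 2 replicate numbers, which were not taken as pairs (correlation of deviations from -0.272 to 0.294). With the block in all 12 libraries the other counts were 7 for the F test, 5 for sheath over stem cells, 6 for papilla over sheath, 5 for stem cells over interfollicular dermis, 1 for sheath over interfollicular dermis and 5 for papilla over interfollicular dermis. In that fit these calls were added: Bmp4 for stem cells over interfollicular dermis (-1.64, adjusted p = 0.009), Sostdc1 for sheath over stem cells (-1.26, adjusted p = 0.0234) and Bambi for papilla over interfollicular dermis (-1.21, adjusted p = 0.0286). The calls of sheath over stem cells and stem cells over interfollicular dermis were absent from it for Grem1 (adjusted p = 0.129 and 0.0635) and Chrd (adjusted p = 0.119 and 0.0794). Over all genes, the median log2 fold change shifted by -0.17 to 0.35 across the comparisons under median-of-ratios scaling. The cause of the changed counts was not tested. With 3 libraries per population and unknown read numbers, levels under 1 FPKM, as for Chrd and Chrdl1 in sheath and interfollicular dermis, are uncertain.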
